A study of Mus musculus with 2 samples.

Results

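Interferon-responding macrophages, here also called interferon macrophages or members, are the C1q-expressing macrophages of a mouse B78ChOVA tumour that carried the most RNA of Ifit1, Ifit2, Ifit3 and Rsad2. They were the 150 barcodes with the highest summed level of these 4 rule genes among 1746 macrophage barcodes, out of 4236 barcodes kept in the whole series, and the other 1596 macrophages are called the rest. A macrophage barcode had at least 5000 CPM of C1qa, C1qb and C1qc together, fewer than 3 UMIs of Cd3d, Cd3e and Cd3g, and under 500 CPM of the cell cycle genes Mki67, Top2a, Cdk1 and Birc5. UMIs are unique molecular identifiers, the counted RNA molecules, and CPM are the UMIs of a gene summed over the barcodes of a set, per 1000000 UMIs of all genes.

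B78ChOVA is a melanoma cell line that was injected in Matrigel under the skin of mice, and immune cells were taken from live tumour sections 16 days later. ZipSeq uses light to place DNA barcodes, here ZC1, ZC2 and ZC3, on the cells of chosen regions before the tissue is taken apart. The labels name no treatment, strain, age or number of animals, and they do not state which region each spatial barcode marked. The deposited counts carry the name CD206R, and no genotype is read from that name here. The 2 libraries, 1 of gene expression and 1 of spatial barcodes, come from the same droplets, so there is 1 sample without a replicate, and no test was made. Parentheses after a value give its 95% counting interval, which leaves out the variation between tumours, and a ratio is the interferon macrophages over the rest unless another pair is named.

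Type I interferons such as interferon beta bind the receptor IFNAR on almost every cell and activate transcription factors, STAT2 and IRF9 among them, that bind the interferon-stimulated response element (ISRE) of many target genes. Ifit1, Ifit2, Rsad2 and Isg15 can also be switched on without interferon, by IRF3 after a cell senses foreign or misplaced nucleic acid, whereas Mx1 depends on signalling through the interferon receptor. Interferon gamma acts through its own receptor and drives the Gbp and Irg families of GTPases, Cxcl9 and Ciita, the regulator of MHC class II genes. Transcription of Ifnb1 itself needs IRF3 or IRF7 together with NF-kB, the factor of inflammatory genes such as Tnf and Acod1.

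The promoters of 3 rule genes and of 4 genes the results turn on are shown because they hold 2 motifs that the gene lists below hold in different shares. The window of Ifit2, the rule gene that is not shown, held a match to neither motif. They are RefSeq sequences of GRCm38.p6, from 250 bases before to 50 bases after the transcription start, written 5′ to 3′ on the strand of the gene. Capitals mark matches on either strand to the core of an ISRE, spelled GAAA, any 2 bases, GAAA, or to GGAAATTCC, a form of the NF-kB site, and overlapping matches are counted separately.
Ifit1: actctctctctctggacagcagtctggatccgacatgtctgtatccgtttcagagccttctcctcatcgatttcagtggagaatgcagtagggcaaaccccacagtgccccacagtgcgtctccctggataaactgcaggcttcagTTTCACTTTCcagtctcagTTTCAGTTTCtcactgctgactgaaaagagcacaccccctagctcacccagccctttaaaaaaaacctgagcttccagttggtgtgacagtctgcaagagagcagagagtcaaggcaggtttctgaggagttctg
Ifit3: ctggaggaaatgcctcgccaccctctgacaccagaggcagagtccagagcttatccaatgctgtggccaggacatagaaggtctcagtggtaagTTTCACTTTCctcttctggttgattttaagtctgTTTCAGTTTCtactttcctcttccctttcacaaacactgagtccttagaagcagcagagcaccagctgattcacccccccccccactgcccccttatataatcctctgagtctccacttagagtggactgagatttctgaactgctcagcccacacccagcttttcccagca
Rsad2: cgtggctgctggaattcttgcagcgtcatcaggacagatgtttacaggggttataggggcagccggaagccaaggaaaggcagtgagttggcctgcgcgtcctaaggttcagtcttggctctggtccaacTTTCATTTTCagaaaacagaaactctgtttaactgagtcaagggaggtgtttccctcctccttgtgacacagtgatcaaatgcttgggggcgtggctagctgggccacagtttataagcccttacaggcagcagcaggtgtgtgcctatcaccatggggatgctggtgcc
Isg15: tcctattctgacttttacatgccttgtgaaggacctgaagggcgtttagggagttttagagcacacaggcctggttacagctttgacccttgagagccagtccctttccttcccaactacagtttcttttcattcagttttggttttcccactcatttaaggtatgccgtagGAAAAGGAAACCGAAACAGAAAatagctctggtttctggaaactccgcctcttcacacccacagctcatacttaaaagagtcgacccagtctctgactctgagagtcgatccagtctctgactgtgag
Cxcl10: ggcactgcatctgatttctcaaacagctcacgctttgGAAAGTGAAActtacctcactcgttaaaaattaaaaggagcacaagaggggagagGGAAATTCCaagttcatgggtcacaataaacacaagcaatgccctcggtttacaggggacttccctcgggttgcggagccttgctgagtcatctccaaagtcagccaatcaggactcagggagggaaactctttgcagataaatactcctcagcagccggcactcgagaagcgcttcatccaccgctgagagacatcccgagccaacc
Ifnb1: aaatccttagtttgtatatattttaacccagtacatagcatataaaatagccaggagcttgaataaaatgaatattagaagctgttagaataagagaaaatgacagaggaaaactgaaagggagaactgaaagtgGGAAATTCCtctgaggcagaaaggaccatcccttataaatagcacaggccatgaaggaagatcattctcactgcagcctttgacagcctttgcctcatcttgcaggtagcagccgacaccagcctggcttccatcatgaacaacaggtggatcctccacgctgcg
Acod1: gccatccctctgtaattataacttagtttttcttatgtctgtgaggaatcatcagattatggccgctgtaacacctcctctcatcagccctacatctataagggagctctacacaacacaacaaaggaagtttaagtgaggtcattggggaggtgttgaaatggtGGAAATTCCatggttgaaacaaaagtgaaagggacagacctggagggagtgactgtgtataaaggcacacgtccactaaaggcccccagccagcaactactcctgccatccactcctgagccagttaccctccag

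These windows lie at chr19:34640639-34640938 (+) for Ifit1, chr19:34583279-34583578 (+) for Ifit3, chr12:26456403-26456702 (-) for Rsad2 and chr4:156200769-156201068 (-) for Isg15. Those of Cxcl10, Ifnb1 and Acod1 lie at chr5:92348840-92349139 (-), chr4:88522745-88523044 (-) and chr14:103046762-103047061 (+). The ISRE letters matched 2 times in Ifit1, 2 times in Ifit3, 1 time in Rsad2 and 3 times in Isg15, where the matches overlap, and 1 time in Cxcl10, which also held 1 match to the NF-kB letters. The windows of Ifnb1 and Acod1 each held 1 match to the NF-kB letters and none to the ISRE letters. A match describes letters and is not shown to be a bound site. The ISRE letters were found in 3.99% of 27025 RefSeq promoters of this length, in 13 of 27 promoters (48.1%) of the list of antiviral effectors, in 13 of 27 (48.1%) of interferon sensors and regulators, in 9 of 17 (52.9%) of interferon gamma response genes and in 0 of 20 of inflammatory activation genes. The NF-kB letters were found in 0.381% of all promoters and in 7 of 20 (35.0%) of inflammatory activation genes, against 0 of 27 in the lists of antiviral effectors and of sensors and regulators.

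The summed level of the rule genes was a continuum with no gap at the limit. It ran from 495 CPM in member 150 to 17945 CPM in the highest member, against 488 CPM in the barcode just below the limit, and 868 of the rest (54.4%) had no UMI of any rule gene. Of the members, 19 stood under 600 CPM, and 16 of the rest stood at 400 CPM or more. In 3 members fewer than 5 rule UMIs set the rank. Rsad2, which encodes the antiviral enzyme viperin, stood at 745 CPM in interferon macrophages and 6.95 CPM in the rest, and Ifit1, which encodes a protein that binds viral RNA lacking the host cap mark, stood at 626 and 12.8 CPM. Ifit3 stood at 655 CPM in interferon macrophages and 15.6 CPM in the rest, and Ifit2 at 367 and 9.52 CPM. These 4 levels are what chose the barcodes and are no finding.

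**Figure D1:**
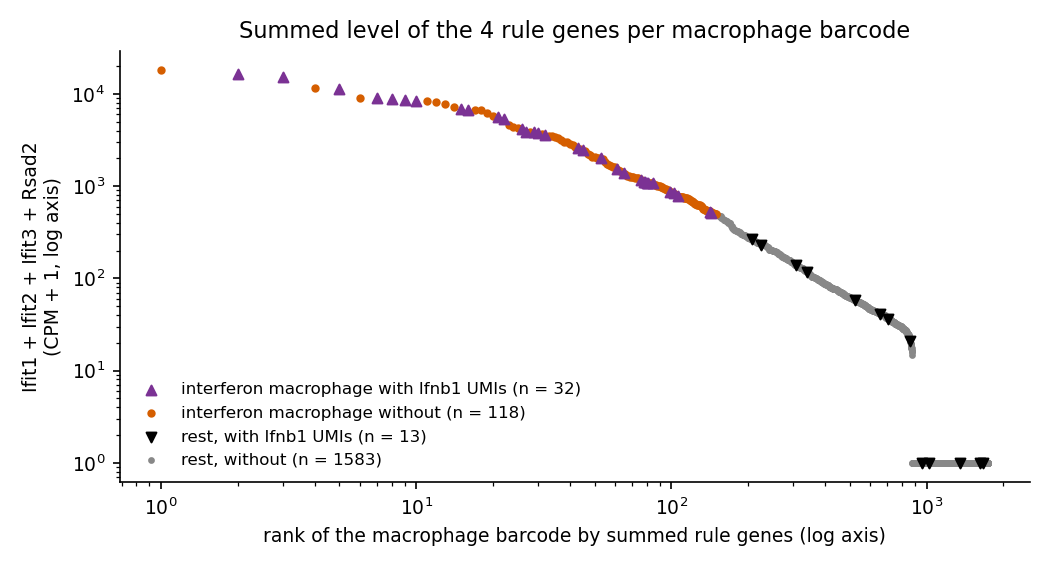
Summed level of Ifit1, Ifit2, Ifit3 and Rsad2 (CPM + 1, log axis) for each of the 1746 macrophage barcodes against its rank (log axis), with purple triangles for the 32 interferon macrophages that held Ifnb1 UMIs, orange points for the 118 that did not, and black triangles for the 13 barcodes of the rest that held them. The level declines smoothly through the limit of 495 CPM at rank 150, and points at the bottom are barcodes with no rule UMI.

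When each rule gene in turn was left out of the sum, the gene left out was still higher in the 150 barcodes chosen by the other 3. Rsad2 then stood at 692 CPM in the chosen barcodes and 11.3 CPM in the others, a ratio of 61.5 (55.8 to 67.9), with UMIs in 124 of 150. The ratio was 41.2 (37.7 to 45.01) for Ifit1, 34.3 (31.6 to 37.1) for Ifit3 and 31.4 (28.3 to 34.9) for Ifit2. These ratios show that the rule genes were high in the same barcodes, and they are no check of the set by genes outside the rule. Between 136 and 143 of the 150 barcodes stayed among the chosen ones. This overlap was largely built in, because each sum kept 3 of the rule genes, and nothing is read from it. The Ifit genes lie side by side on chromosome 19, and Ifit1bl1 and Ifit3b there are close copies of Ifit1 and Ifit3, so reads may be split between copies and their levels are uncertain. Ifit3b stood at 84.2 CPM in interferon macrophages and 1.82 CPM in the rest. Ifit1bl1 stood at 28.6 and 0.391 CPM, with 53.6% of its UMIs in interferon macrophages in 1 barcode.

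The barcodes answer to the name macrophage by their markers. C1qa, a subunit of the complement factor C1q, was found in all 150 interferon macrophages at a summed level of 5099.7 CPM, and in 1594 of the rest at 6154 CPM, and the rule asked for it. Adgre1, which encodes the macrophage surface protein F4/80, was found in 147 of 150 interferon macrophages at 444 CPM, against 1545 of 1596 at 488 CPM in the rest. Apoe, a lipid carrier of tumour macrophages, stood at 6948 CPM in interferon macrophages and 7276 CPM in the rest, so the barcodes carried the usual macrophage transcripts at similar levels. Mrc1, the mannose receptor CD206, stood at 97.0 and 142 CPM, a ratio of 0.685 (0.616 to 0.760). The median depth was 24033 UMIs and 4145 genes per barcode in interferon macrophages, against 26210 UMIs and 4624 genes in the rest, and the median mitochondrial share was 3.22% against 3.86%.

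Markers of other cell types were summed by list. The 14 T cell markers summed to 12.0 CPM in interferon macrophages and 12.2 CPM in the rest, and the 8 fibroblast markers to 3.83 and 5.36 CPM, with Lum, Pdgfra and Pdgfrb at 0 in interferon macrophages. Of the markers of plasmacytoid dendritic cells, the classical interferon-producing cells, Siglech, Klk1 and Ly6d were at 0 in interferon macrophages, and the list summed to 843 CPM in interferon macrophages and 505 CPM in the rest, of which Bst2, itself an interferon target, gave 733 and 417 CPM. The 9 neutrophil markers summed to 39.1 CPM in interferon macrophages and 36.1 CPM in the rest, with S100a9, Retnlg, Cxcr2, Ly6g, Camp and Ngp at 0 in interferon macrophages. The 10 natural killer cell markers summed to 64.1 and 44.3 CPM, with Ncr1, Klra8, Gzma, Eomes and Klre1 at 0 in interferon macrophages. Of the 6 compared, Klrk1 lay at least 2-fold higher, at a log2 ratio of 1.47, and 3 lay at least 2-fold lower. The 7 cDC1 markers summed to 270 and 315 CPM, with Itgae at 0. The 7 cDC2 markers summed to 99.8 CPM in interferon macrophages and 104 CPM in the rest. Of the 6 compared, Dpp4 and Kmo lay at least 2-fold higher, at log2 ratios of 2.22 and 1.33, and none 2-fold lower. The 7 markers of mature dendritic cells summed to 8.42 and 15.02 CPM with Ccl17 and Cacnb3 at 0. Of the 4 compared, Ccr7 lay at least 2-fold higher, at 1.06, and 2 lay lower. The 7 endothelial markers summed to 37.8 and 24.3 CPM with Esam and Cldn5 at 0 in interferon macrophages. Of the 3 compared, Kdr lay at least 2-fold higher, at 1.75, and none 2-fold lower. Interferon macrophages were fewer than the rest, so a marker at 0 sets only an upper limit. The 6 mast cell and basophil markers were at 0 in interferon macrophages and at 0.0230 CPM in the rest. The 8 melanoma markers summed to 163 CPM in interferon macrophages and 112 CPM in the rest, with Tyr at 0 in interferon macrophages. Of the 7 compared, only Gpnmb, also on the tissue macrophage list, lay at least 2-fold higher, at a log2 ratio of 1.12. Pmel had a log2 ratio of 0.69, Mlana of -0.18 and Tyrp1 of -0.93. The 8 B cell markers summed to 139 CPM in interferon macrophages and 725 CPM in the rest, with Pax5 and Iglc2 at 0 in interferon macrophages. Igkc stood at 1.79 CPM in interferon macrophages and 532 CPM in the rest. Of the Igkc UMIs of the rest 99.7% lay in 1 barcode, and its log2 ratio of -8.22 became -0.088 at a C1q limit of 10000 CPM and -0.13 with both sets limited to 10000 to 40000 UMIs. The part of these transcripts in the results was not tested.

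A gene was compared where the sets together held 30 UMIs or more and the smaller was expected to hold 3. Of 11080 such genes, 378 (3.41%) lay at least 2-fold above the rest in interferon macrophages and 472 (4.26%) at least 2-fold below. The interval of the ratio excluded 1 for 353 (3.19%) of the higher and 213 (1.92%) of the lower genes. The median ratio of all genes was 0.895, a log2 ratio of -0.16. Because the same barcodes were ranked by interferon target genes, the counts by list that follow describe the chosen set and nothing is read from their distance to the background. The lists were drawn up with earlier results of these data known.

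Among antiviral effectors, genes whose products act on viral RNA, proteins or nucleotides, 26 of 33 genes compared lay at least 2-fold higher in interferon macrophages and none 2-fold lower, with a median ratio of 3.32. Isg15, a small protein that is attached to other proteins like ubiquitin, stood at 1469 CPM (1431 to 1507) in interferon macrophages and 97.4 CPM (94.5 to 100.4) in the rest, a ratio of 15.1 (14.5 to 15.7). Per barcode it ran from 0 to 9406 CPM with a median of 1042 CPM in interferon macrophages, and from 0 to 2542 CPM with a median of 42.8 CPM in the rest, so the ranges overlapped while the medians stood far apart. After each barcode was thinned to 5000 UMIs, Isg15 was found in 91.8% of 146 interferon macrophages (86.1 to 95.7) and in 28.1% of 1543 of the rest (25.8 to 30.4), and without thinning in 98.0% and 65.1%. CD3 barcodes without C1q, at a median depth of 6637 UMIs, held Isg15 in 26.9% of 334 after the same thinning. T cells may express Isg15 themselves. Free RNA held Isg15 at 207 CPM, Mx1 at 25.1 CPM and Cxcl10 at 425 CPM, and the T cell markers at 697 CPM against 12.2 CPM in the rest, and the part of free RNA in the levels of the rest was not tested.

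Mx1, a GTPase that blocks influenza and related viruses, stood at 113 CPM in interferon macrophages and 8.07 CPM in the rest, a ratio of 13.9 (12.1 to 16.1). It was found in 103 of 150 interferon macrophages and 237 of 1596 of the rest. Cmpk2, a mitochondrial nucleotide kinase whose gene at chr12:26469204-26479837 is the neighbour of Rsad2 at chr12:26442746-26456452, stood at 122 and 5.17 CPM, a ratio of 23.5 (20.0 to 27.7). Ifi44 and Isg20, an RNA exonuclease, had ratios of 11.3 and 10.3, and Oasl1, a relative of the oligoadenylate synthetases that restrains Irf7 translation in mice, stood at 261 CPM in interferon macrophages and 22.9 CPM in the rest, a ratio of 11.4 (10.4 to 12.4). The lowest ratios of the list belonged to Ifitm2, at 855 and 874 CPM, and Ifi27l2a, at 1142 and 777 CPM.

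Of the interferon sensors and regulators, 29 of 34 genes lay at least 2-fold higher in interferon macrophages and none 2-fold lower, with a median ratio of 3.37. Usp18, the protease that removes Isg15 and damps the interferon receptor, stood at 131 CPM in interferon macrophages and 11.0 CPM in the rest, a ratio of 11.9 (10.5 to 13.5). Ifih1 and Ddx58, which encode the RNA sensors MDA5 and RIG-I, had ratios of 5.49 (5.03 to 5.99) and 5.20 (4.54 to 5.95). Irf7, which amplifies interferon production, stood at 506 CPM in interferon macrophages and 108 CPM in the rest, a ratio of 4.67 (4.43 to 4.93). Ifi208, which was not on the list, and Ifi213 and Ifi205, all of the Ifi200 family of DNA-binding proteins, had ratios of 16.0 (12.3 to 20.9), 8.95 (7.87 to 10.2) and 8.39 (7.47 to 9.42), and close relatives in that family may share reads. Signal carriers had smaller ratios, of 3.66 for Stat2 and 1.87 for Irf9, and the lowest of the list were Nlrc5 at 1.77 and Nmi at 1.56.

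**Figure D2:**
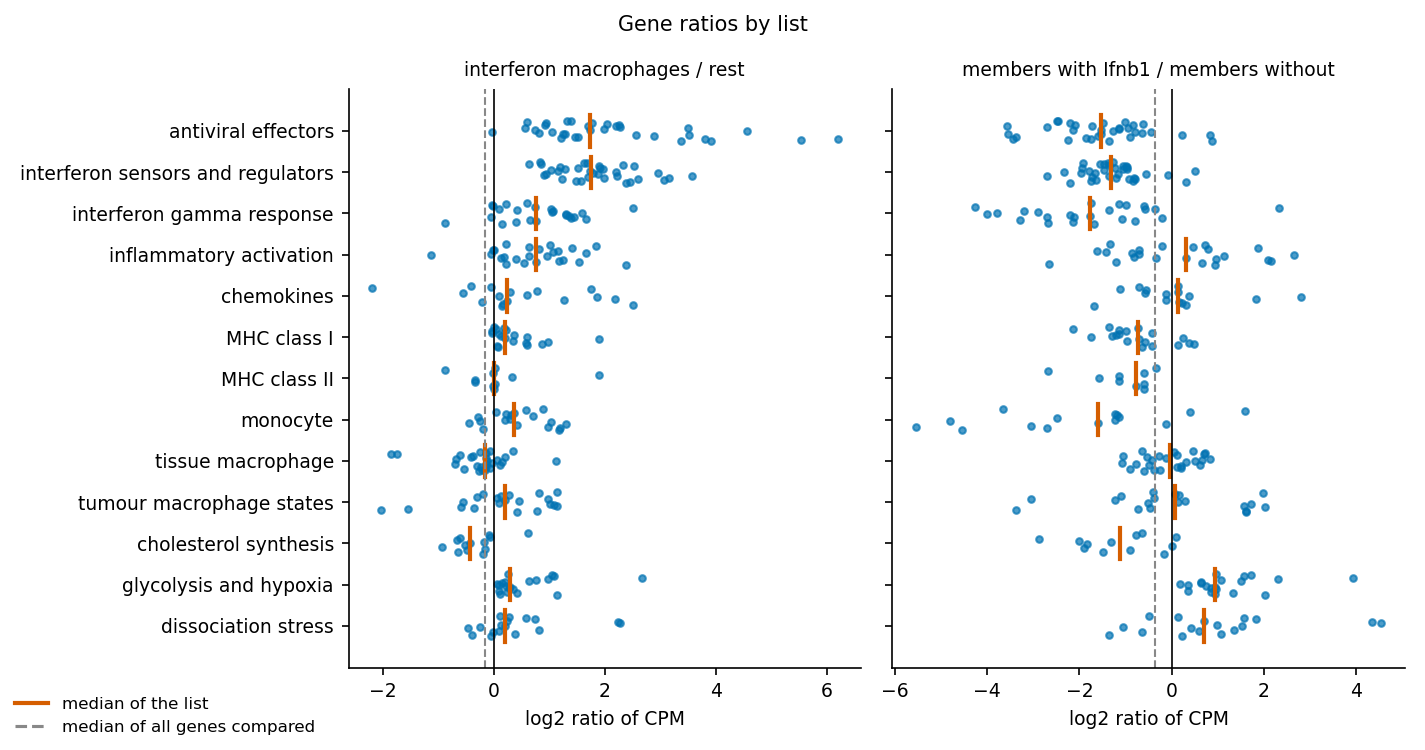
Log2 ratios of CPM for the genes of 13 lists, with 1 blue point per gene compared, an orange bar at the median of the list and a dashed grey line at the median of all genes compared. On the left interferon macrophages are set over the rest, where the bars of antiviral effectors and of sensors and regulators stand at 1.73 and 1.75. On the right interferon macrophages with Ifnb1 UMIs are set over those without, where the same bars stand at -1.53 and -1.32 and that of glycolysis and hypoxia stands at 0.95.

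Ifnb1, the gene of interferon beta at chr4:88522025-88522774, had the highest ratio of all genes that the naming rule admitted, those with at least 100 UMIs that were found in at least 10% of the barcodes of the higher set. It stood at 95.7 CPM (86.3 to 106) in interferon macrophages and 0.506 CPM (0.317 to 0.766) in the rest, a ratio of 189 (123 to 306). Its 375 UMIs in interferon macrophages lay in 32 of 150 barcodes, 23 of which held 5 UMIs or more, while the 22 UMIs of the rest lay in 13 of 1596 barcodes, none with 5. After thinning to 5000 UMIs, which left out 4 interferon macrophages and 53 of the rest, Ifnb1 was found in 17.1% (11.4 to 24.2) of interferon macrophages and 0.130% (0.0157 to 0.467) of the rest. The free RNA of barcodes with 10 to 100 UMIs held Ifnb1 at 6.43 CPM, and its part in the UMIs of the rest was not tested. The log2 ratio of 7.56 became 5.91 without heat shock barcodes, 5.97 with 75 members, 6.64 with 300 members or at a C1q limit of 10000 CPM, and 9.01 with 5% free RNA subtracted.

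Over the whole series, 65 of 4236 barcodes held 459 Ifnb1 UMIs, and interferon macrophages held 81.7% of them. Macrophages above the cell cycle limit held 40 UMIs in 9 of 665 barcodes. CD3 barcodes without C1q, T cells by that marker, held 1 UMI in 481 barcodes at a median depth of 6637 UMIs, and the other kept barcodes 21 UMIs in 10 of 1014. Monocytes with Ly6c2 and without C1q held none in 330 barcodes at a median depth of 10448 UMIs, which at 3 counts allows up to 0.909% of barcodes with a UMI, against an upper Clopper-Pearson limit of 1.11%, and sets no limit on the cells that express it. Other interferon ligands were almost missing, since Ifna1, Ifna4, Ifnl2 and Ifnl3 had 0 UMIs in interferon macrophages and in the rest, Ifna2 had 1 and 0, and Ifng had 4 and 26. The receptor genes did not stand apart, with ratios of 0.885 (0.766 to 1.02) for Ifnar1 and 1.12 (1.02 to 1.24) for Ifnar2.

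Chemokines divided by gene. Cxcl10, which draws T cells through the receptor CXCR3, stood at 1812 CPM (1770 to 1855) in interferon macrophages and 318 CPM (313 to 323) in the rest, a ratio of 5.70 (5.54 to 5.86), with UMIs in 122 of 150 barcodes and 699 of 1596. Cxcl9, a ligand of the same receptor that answers to interferon gamma, stood at 2064 CPM in interferon macrophages and 1865 CPM in the rest, a ratio of 1.11 (1.08 to 1.13). Ccl4 and Ccl5, which draw T cells and monocytes, had ratios of 4.52 (4.43 to 4.60) and 3.63 (3.49 to 3.78). In all, 5 of 17 chemokines lay at least 2-fold higher, the other two being Ccl22 at a ratio of 3.36 and Ccl3 at 2.40, and 1, Ccl24, lay 2-fold lower on 1 UMI in interferon macrophages, with a median ratio of 1.18. Of the UMIs of Ccl5 in interferon macrophages, 27.9% came from 1 barcode. Ccl8 stood at 1044 CPM in interferon macrophages and 1545 CPM in the rest.

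The genes of interferon gamma response were less uniform, with 11 of 24 at least 2-fold higher, none 2-fold lower and a median ratio of 1.69. Nos2, which makes nitric oxide, stood at 30.1 CPM in interferon macrophages and 5.29 CPM in the rest, a ratio of 5.69 (4.52 to 7.14), in 33 of 150 barcodes and 85 of 1596. Gbp5, a GTPase that helps assemble inflammasomes, had a ratio of 3.16 (2.68 to 3.72). Ciita stood at 23.7 CPM in interferon macrophages and 43.9 CPM in the rest, a ratio of 0.541 (0.435 to 0.667), and Gbp8 had a ratio of 0.967. MHC class II genes had a median ratio of 0.996 over 10 genes, H2-Aa standing at 5113 and 5126 CPM and only H2-Oa passing 2-fold. MHC class I genes had a median of 1.15 over 19 genes, of which only H2-T24 passed 2-fold at 8.42 CPM in interferon macrophages and 2.28 CPM in the rest.

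Inflammatory activation genes had a median ratio of 1.68, with 10 of 25 at least 2-fold higher and 1, the neutrophil chemokine gene Cxcl1, 2-fold lower at 8.68 CPM in interferon macrophages and 19.1 CPM in the rest. Acod1, whose enzyme makes itaconate, stood at 146 CPM (134 to 158) in interferon macrophages and 28.1 CPM (26.6 to 29.7) in the rest, a ratio of 5.19 (4.69 to 5.73). It was found in 72 of 150 interferon macrophages and 334 of 1596 of the rest, so the median barcode of each set held no UMI of it. Tnf had a ratio of 2.24 (2.08 to 2.42) and Il1rn, the interleukin 1 receptor antagonist, of 2.88 (2.69 to 3.08), whereas Il1b had 1.16 (1.05 to 1.28) and Cxcl2 0.967. Cd274, the checkpoint ligand PD-L1, stood at 156 CPM in interferon macrophages and 70.6 CPM in the rest, and Tnfsf10, the death ligand TRAIL and an interferon target, at 11.7 and 1.86 CPM. Of 17 checkpoint and costimulatory ligands, 4 lay at least 2-fold higher, these and Cd40 and Pdcd1lg2, and none 2-fold lower. Among the highest of all genes, Tnfsf15 had a ratio of 17.1 with 37.5% of its UMIs in 1 barcode, and Tnfsf8 a ratio of 10.1 (7.14 to 14.2) in 29 of 150 barcodes.

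Of 28 tissue macrophage genes, Lyve1 and Cbr2 lay at least 2-fold lower in interferon macrophages and Gpnmb 2-fold higher. Of all genes compared, 4.26% lay lower and 3.41% higher, so these counts were near the shares of all genes. The median ratio of the list was 0.900, against 0.895 for all genes. Retnla, a secreted product of alternatively activated macrophages, stood at 6.89 CPM in interferon macrophages and 28.2 CPM in the rest, Lyz1, a lysozyme, at 14.6 and 58.3 CPM, and Cbr2, a marker of resident macrophages, at 4.60 and 15.4 CPM. In interferon macrophages 1 barcode held 37.0% of the UMIs of Retnla and 38.6% of those of Lyz1. The 3 genes were found in 88, 271 and 229 of the 1596 barcodes of the rest, where 1 barcode held 27.7% of the 1226 UMIs of Retnla, and free RNA held Retnla at 545 CPM. Their ratios were 0.244, 0.2498 and 0.298, but with 300 members in place of 150 their log2 ratios turned to 0.15, 0.046 and 0.17. By the naming rule the 15 lowest genes held Lyz1, Cbr2 and 13 others such as Trip13 and Amacr, each with 3 to 14 UMIs in interferon macrophages. None of the 13 genes of cholesterol synthesis passed 2-fold, with a median ratio of 0.743, from 0.524 for Fdft1 to 1.52 for Ch25h, which is an interferon target. Monocyte genes had a median ratio of 1.28, with 4 of 19 at least 2-fold higher, namely Vcan, Plac8, Ly6c2 and Ly6a. Plac8 stood at 124.8 CPM in interferon macrophages and 54.99 CPM in the rest, and 15 of 150 interferon macrophages (10.0%) held Ly6c2 at 200 CPM or more, against 116 of the rest (7.27%).

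Levels outside the rule followed the rank of the rule genes, each in its own way. Isg15 stood at 50.8 CPM in the 868 macrophages with no rule UMI, 100.4 CPM in the 578 others further down with a rule UMI, 338 CPM in the 150 just below the limit, and 671, 1113 and 2644 CPM in the lower, middle and upper 50 members. Cxcl10 stood at 145, 429, 756, 668, 1192 and 3615 CPM in the same order, nearly flat across the limit and highest in the upper 50. Acod1 stood at 15.4, 34.5, 67.9, 89.8, 61.4 and 293 CPM, and its level in the middle 50 members was no higher than in the 150 macrophages just below the limit. Ifnb1 stood at 0.232, 0.779 and 0.757 CPM below the limit and at 5.56, 72.2 and 210 CPM above it, and its 32 positive members were 4, 10 and 18 of each 50. Isg15 and Cxcl10 thus continued below rank 150, and the level of Ifnb1 in the lower 50 members rested on 7 UMIs in 4 barcodes.

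**Figure D3:**
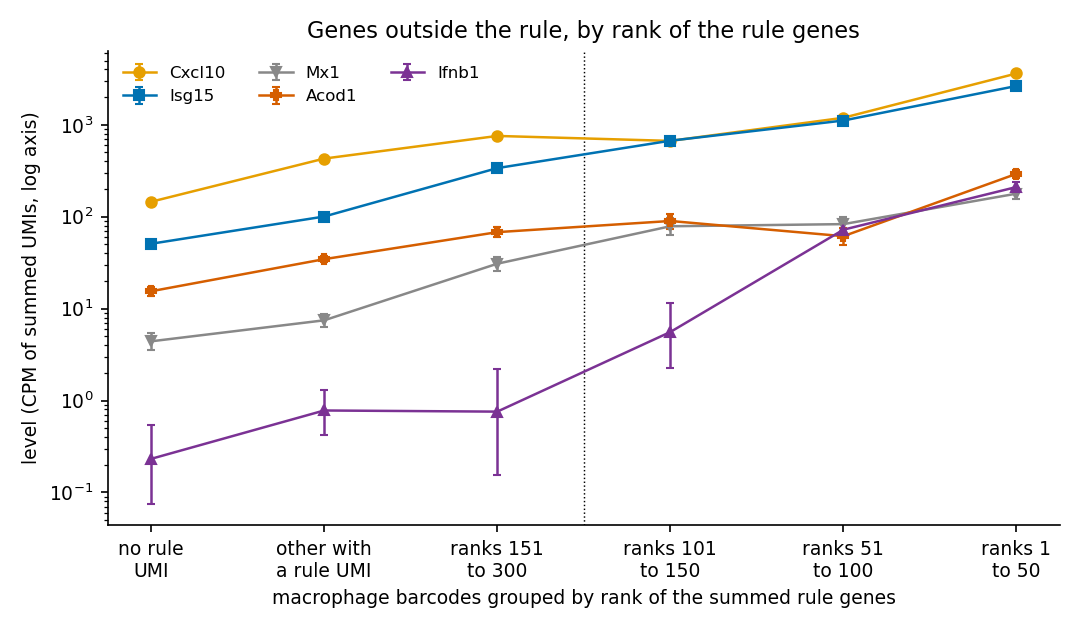
Levels of 5 genes outside the rule (CPM of summed UMIs, log axis) in macrophages grouped by rank of the summed rule genes, from no rule UMI at the left to the upper 50 members at the right, with 95% Poisson bars and a dotted line at the limit of 150 members. Isg15 climbs through every group from 50.8 to 2644 CPM, and Ifnb1 stays below 1 CPM left of the line and reaches 210 CPM at the right.

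The interferon macrophages were then divided into the 32 with and the 118 without an Ifnb1 UMI, a division chosen after the Ifnb1 values were seen. The median depth was 24510 UMIs with Ifnb1 and 23753 UMIs without, the median number of genes 3771 and 4285, and the median mitochondrial share 2.82% and 3.28%. The median rule sum was 3062 CPM with Ifnb1 and 1030.4 CPM without. Of 7534 genes compared, 298 (3.96%) lay at least 2-fold higher and 1515 (20.1%) at least 2-fold lower with Ifnb1, and the median ratio of all genes was 0.773, a log2 ratio of -0.37, against which list medians have to be read. Centred on that median, 617 genes lay 2-fold higher and 839 lower.

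The rule genes other than Ifit3, Isg15 and a few other targets were higher with Ifnb1, but most interferon targets were not. All members, with or without Ifnb1, were chosen by a high sum of the rule genes. The part of that choice in the contrast between rule genes and other targets was not tested. Ifit1 stood at 1371 CPM with Ifnb1 and 410 CPM without, and Isg15 at 2266 CPM (2168 to 2368) with Ifnb1 and 1238 CPM (1198 to 1278) without. Mx1 stood at 39.7 CPM (27.7 to 55.3) with Ifnb1 and 134 CPM (121 to 147) without, a ratio of 0.297, in 15 of 32 barcodes and 88 of 118. Irf7 stood at 228 CPM with Ifnb1 and 587 CPM without, Usp18 at 24.98 and 162 CPM, and Eif2ak2, the RNA-dependent kinase PKR, at 7.95 and 92.9 CPM. Of 33 antiviral effectors, 23 lay at least 2-fold lower with Ifnb1 and none 2-fold higher, with a median ratio of 0.346, and of 34 sensors and regulators 24 were lower and none higher, with a median of 0.400. Among the 50 members with the highest rule sum alone, 18 with and 32 without Ifnb1, the median log2 ratio of antiviral effectors was -1.77, against -1.53 over all members, and that of interferon gamma targets -1.50, against -1.77.

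Interferon gamma targets were also lower with Ifnb1, with 17 of 24 genes at least 2-fold lower and a median ratio of 0.293. Iigp1 stood at 15.9 CPM with Ifnb1 and 255 CPM without, Ifi47 at 22.7 and 313 CPM, and Gbp4 at 5.68 and 55.3 CPM, all of them GTPases that attack vacuoles of intracellular microbes. Cxcl9 stood at 759.6 CPM with Ifnb1 and 2443 CPM without, and Ciita at 4.54 and 29.3 CPM. The exception of the list was Nos2, at 79.5 CPM with Ifnb1 and 15.8 CPM without, a ratio of 5.03 (3.43 to 7.42). Monocyte genes were also lower, 12 of 15 at least 2-fold, Plac8 standing at 3.41 CPM with Ifnb1 and 160.0 CPM without and Ly6c2 at 5.68 and 134 CPM, and without barcodes of at least 200 CPM Ly6c2, which include 0 of the 32 and 15 of the 118, the medians of antiviral effectors and interferon gamma targets were -1.40 and -1.74 on the log2 scale. Free RNA held Gbp4, Plac8 and Ly6c2 at 43.8, 290.1 and 96.1 CPM.

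Several stress, hypoxia and NF-kB target genes were higher with Ifnb1. Hspa1a, a heat shock chaperone, stood at 2185 CPM (2088 to 2285) with Ifnb1 and 93.2 CPM (82.7 to 105) without, a ratio of 23.4 (20.7 to 26.7), against 117 CPM in the rest. Per barcode Hspa1a ran from 0 to 12993 CPM with a median of 897 CPM with Ifnb1, and from 0 to 2066 CPM with a median of 0 without. Ccl4 stood at 11886 CPM with Ifnb1 and 1703 CPM without, a ratio of 6.98 (6.75 to 7.22), and was found in all 32 barcodes at 1506 CPM or more, against 104 of 118. Tnf stood at 535 and 119 CPM, Ppp1r15a, which encodes the stress phosphatase subunit GADD34, at 779 and 115 CPM, and Hilpda, a hypoxia gene of lipid droplets, at 411 and 74.4 CPM. Adm, adrenomedullin, stood at 106 CPM with Ifnb1 and 6.92 CPM without, and Slc2a1, the glucose transporter GLUT1, at 781 and 191 CPM.

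Of 20 glycolysis and hypoxia genes 8 lay at least 2-fold higher with Ifnb1 and none lower, with a median ratio of 1.93, and of 17 genes known to respond to the dissociation of tissue 7 were higher and 2 lower, with a median of 1.62. Il1b, an NF-kB target as well, stood at 20.4 CPM with Ifnb1 and 130.1 CPM without. Of 23 inflammatory genes 5 lay higher and 5 lower, against 3.96% and 20.1% of all genes compared. The lower ones were thus near the share of all genes. The median log2 ratio of these inflammatory genes was 0.32, against -0.37 for all genes, and turned to -0.42 without the heat shock barcodes counted next. Heat shock marked barcodes rather than the whole set, since Hspa1a and Hspa1b together reached 500 CPM in 22 of 32 members with Ifnb1 (68.8%), 11 of 118 without (9.32%) and 103 of the rest (6.45%). With those barcodes left out, the median log2 ratios were -1.40 for antiviral effectors, -1.36 for interferon gamma targets, 1.03 for glycolysis and hypoxia and 0.66 for dissociation stress, and the part of the dissociation genes in the division was not tested. Melanoma markers summed to 236 CPM with Ifnb1 and 142 CPM without, with Tyr at 0 in each. Of the 5 compared, only Pmel lay at least 2-fold higher, at a log2 ratio of 1.79, and Gpnmb had 0.67. The part of these markers was not tested.

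**Figure D4:**
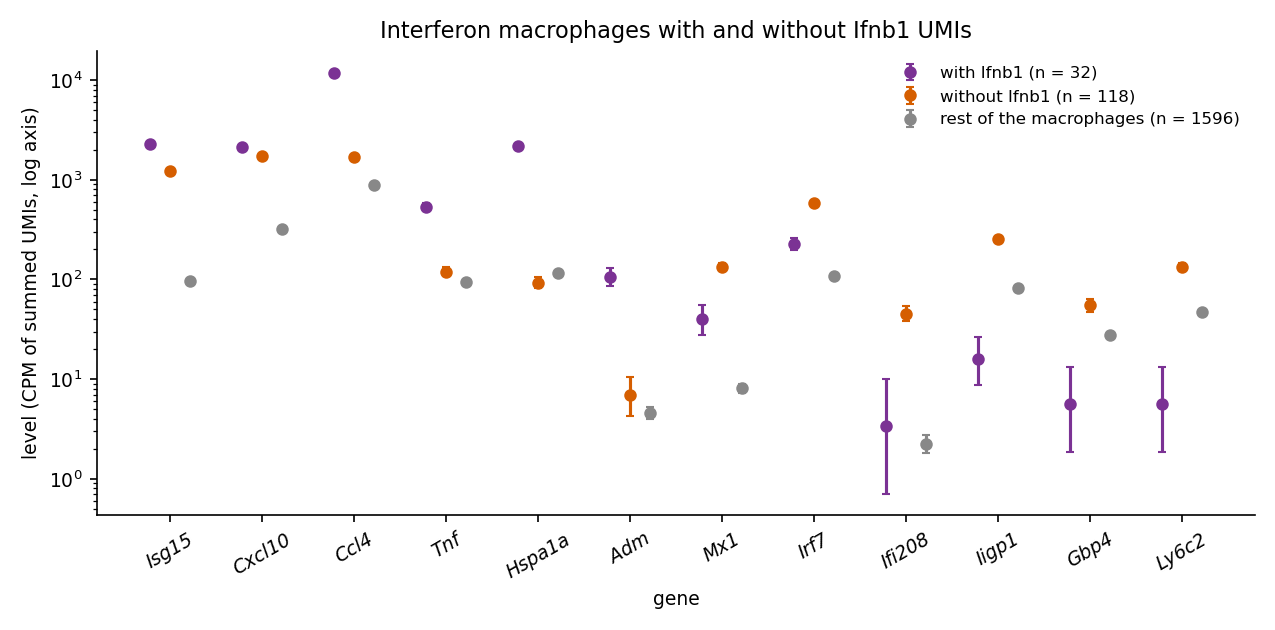
Levels of 12 genes (CPM of summed UMIs, log axis) with 95% Poisson bars in the 32 interferon macrophages with Ifnb1 UMIs (purple), the 118 without (orange) and the 1596 macrophages of the rest (grey). Ccl4, Tnf, Hspa1a and Adm are highest with Ifnb1, whereas Mx1, Irf7, Ifi208, Iigp1, Gbp4 and Ly6c2 are highest without it, and Iigp1, Gbp4 and Ly6c2 lie below the rest with Ifnb1.

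Members with and without Ifnb1 can also be set side by side over the same rest, which both comparisons share. Antiviral effectors had a median ratio of 1.16 in members with Ifnb1, with 11 of 31 at least 2-fold higher and 4 lower, against backgrounds of 4.22% and 24.6%, and of 3.89 in members without, with 29 of 33 higher and none lower, against 3.14% and 3.69%. Mx1 had ratios of 4.92 (3.37 to 6.98) with Ifnb1 and 16.6 (14.3 to 19.2) without, and Isg15 of 23.3 (22.05 to 24.5) and 12.7 (12.2 to 13.3). Interferon gamma targets had a median of 0.544 with Ifnb1 and 2.05 without. Acod1 had ratios of 8.28 (7.11 to 9.61) with Ifnb1 and 4.29 (3.81 to 4.82) without, so it stood above the rest in each.

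Monocytes with at least 500 CPM of Ly6c2 and under 1000 CPM of C1q, 330 barcodes, also carried interferon targets. The antiviral effectors stood at a median ratio of 1.16 in interferon macrophages over these monocytes, with 5 of 33 at least 2-fold higher and 3 lower, against 9.35% and 9.97% of 8866 genes, and sensors and regulators at 1.12, with 1 higher and 1 lower of 34. Mx1 stood at 113 CPM in interferon macrophages and 97.4 CPM in monocytes, Irf7 at 506 and 557 CPM, and Isg15 at 1469 and 629 CPM. Chemokines had a median ratio of 3.35, with Ccl4 at 3993 CPM in interferon macrophages and 294 CPM in monocytes and Cxcl9 at 2064 and 675 CPM. Acod1 stood at 146 CPM in interferon macrophages and 32.6 CPM in monocytes, and Nos2 at 30.1 and 0.268 CPM, found in 1 monocyte barcode.

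The spatial barcodes gave no stable placement. With at least 10 spatial UMIs and 2 times the next barcode, 95 of 150 interferon macrophages were assigned, 1 to ZC1 (1.05%), 1 to ZC2 (1.05%) and 93 to ZC3 (97.9%, 92.6 to 99.7), and of 932 assigned macrophages of the rest 0.429% were ZC1, 0.644% ZC2 and 98.9% ZC3 (98.0 to 99.5). ZC3 was also the most frequent spatial barcode in free droplets, at 58.0% of their spatial UMIs, and the rule on raw counts returned ZC3 for most barcodes of each set. With each share divided by that of free droplets, 73 interferon macrophages were assigned, 16.4% (8.79 to 27.0) to ZC1, 16.4% to ZC2 and 67.1% (55.1 to 77.7) to ZC3, against 24.9% (21.9 to 28.1), 23% and 52.1% (48.5 to 55.6) of 774 of the rest.

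By that relative rule interferon macrophages made up 5.85% (3.06 to 10.0) of the macrophages of ZC1, 6.32% (3.31 to 10.8) of ZC2 and 10.8% (8.13 to 14.1) of ZC3. The intervals overlap, and the share among unassigned macrophages was 8.57% (6.82 to 10.6). Their summed spatial UMIs were 17.6% ZC1, 26.8% ZC2 and 55.6% ZC3, against 14.95%, 28.7% and 56.4% in the rest. The median share of ZC3 per barcode was 62.1% in interferon macrophages and 59.8% in the rest, so the pooled counts and the medians differed in direction. In the rest 1 barcode held 497560 spatial UMIs against a median of 1933. Among interferon macrophages the highest barcode held 46512. The part of such single barcodes in the pooled shares was not tested. Of the 15 members with Ifnb1 that the relative rule assigned, 10 were ZC3 (66.7%, 38.4 to 88.2), against 39 of 58 without (67.2%, 53.7 to 79.0). All 4236 kept barcodes held UMIs of both libraries, with 8 to 497560 spatial UMIs.

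**Figure D5:**
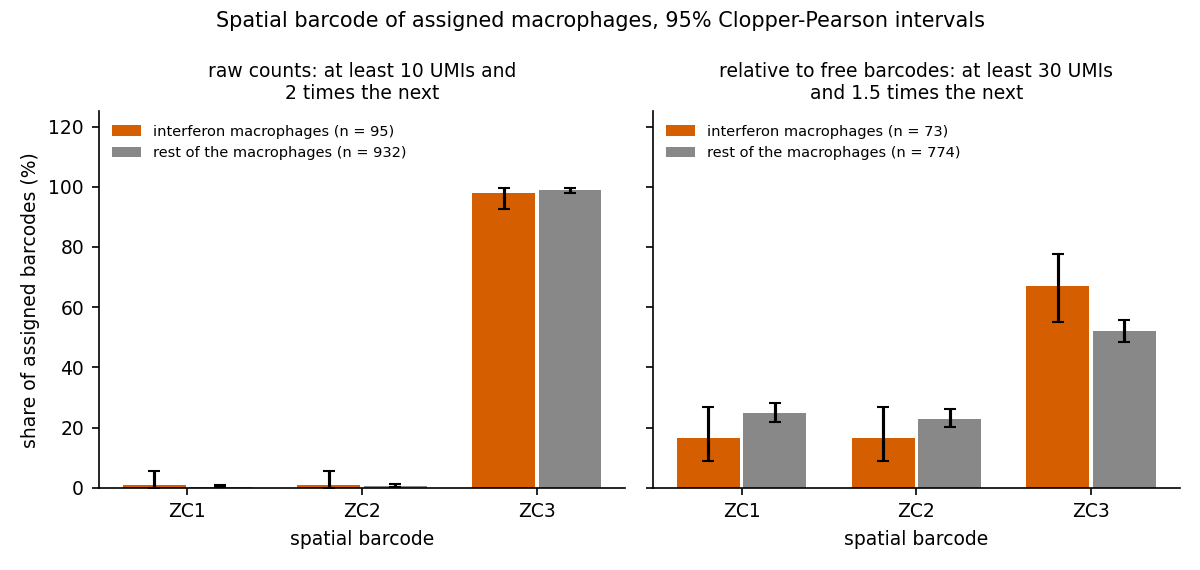
Share of assigned barcodes (%) with each spatial barcode in interferon macrophages (orange) and the rest (grey), with 95% Clopper-Pearson bars, by the rule on raw spatial counts (left) and by the rule relative to free barcodes (right). ZC3 takes 97.9% and 98.9% on the left and 67.1% and 52.1% on the right, so the placement depends on the rule.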

How the data were processed

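Live tumour tissue was sectioned, its cells were marked with spatial barcodes and run on a droplet system, and UMI counts per gene and barcode were deposited by the authors, with counts of ZC1, ZC2 and ZC3 in the same barcodes. Cell Ranger 4.0.0 and mm10 are named in the submitters' processing notes, and no other step is given in the sources used here. All 117528298 gene UMIs and 14355102 spatial UMIs were counts as deposited.

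A barcode was kept if it held 1000 UMIs or more from 500 genes or more, of which mitochondrial genes gave no more than 10%, which left 4236 with 1027 to 215512 UMIs (median 23132). No doublet caller was run and no doublets were removed beyond the limit on CD3 UMIs. Levels were CPM of summed UMIs with exact Poisson intervals, ratios had exact conditional binomial intervals, and shares had Clopper-Pearson intervals, all at 95% and covering counting error only, since cells of 1 library are no replicates. Where a set held no UMI of a gene, 3 counts stood in as its upper limit. Free RNA was read from 68497 barcodes with 10 to 100 gene UMIs. Detection was compared after thinning each barcode to 5000 UMIs. The ratio intervals were run on simulated Poisson counts of whole sets, the assumption they are built on. That run checked the calculation and does not cover unevenness between barcodes. Spatial barcodes were assigned at 10 UMIs and 2 times the next. Promoters of GRCm38.p6 came from RefSeq and gene positions from the GENCODE annotation of GRCm38.

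The members and lists were chosen with earlier results of these data known, and 2 of 460 list genes, Mx2 and Cxcl4, were not matched. Named were the rule genes, Cxcl10 and Acod1, the 2 highest and 2 lowest genes of each list, and the 15 genes with the highest ratios and the 15 with the lowest, if they had 100 UMIs or more and were found in 10% or more of the higher set. Other genes were named after their values were seen. Some genes are not reported here. Alternatives changed the limits, the number of members, the ranking, the filter and the spatial rule. Figures were drawn with matplotlib 3.10.9, and statistics came from scipy 1.17.1 and numpy 2.4.6 under Python 3.11.15, with tables in pandas 2.3.3.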

Additional observations from a re-analysis of the deposited data

How the results depend on the processing

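Under 32 alternative settings, 396 of 428 values of the gene counts, list medians and spatial shares stayed within their stated range, and of all 7758 values 6734 did and 1011 moved. Of 7582 log2 ratios and list medians, 212 took the other sign, 13 of them values whose range had excluded 0 and that, for a single gene, were at least 2-fold. The count of 378 genes at least 2-fold higher in interferon macrophages became 931 with at least 10 UMIs per gene, 800 at 1.5-fold and 140 at 3-fold. The count of 472 lower genes became 747 with 75 members, 204 with 300 members, 242 with at least 100 UMIs per gene, 1477 at 1.5-fold and 162 at 3-fold. With Ifnb1 against without, the 298 higher genes became 171 with at least 100 UMIs per gene, 473 with at least 10, 658 at 1.5-fold, 99 at 3-fold and 617 when centred on the median of all genes. The 1515 lower genes became 672 with at least 100 UMIs, 2898 at 1.5-fold, 578 at 3-fold, 839 when centred and 974 among the upper 50 members alone. Other thresholds count other genes by construction, and for the other settings the cause was not tested.

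The share of ZC1 went to 0% at 2000 UMIs and 1000 genes, at 5% mitochondrial UMIs, at a C1q limit of 10000 CPM, when ranked on 5000 UMIs per barcode and with both sets limited to 10000 to 40000 UMIs. The share of ZC2 went to 0% with 75 members, at that C1q limit, with cell cycle genes under 200 CPM, without Ifit1 in the sum and when ranked on summed log2 values. Relative to free barcodes both shares were 16.4%, and ZC3 was 67.1%. By the rule on raw counts, ZC3 was 100% at the C1q limit of 10000 CPM. The median log2 ratio of tissue macrophage genes turned to 0.0071 when centred. With 300 members the log2 ratios turned to 0.17 for Cbr2, 0.046 for Lyz1, 0.15 for Retnla, 0.64 for Nkg7 and 0.48 for Gzma. Retnla turned to 2.34 at a C1q limit of 2000 CPM, Ccr7 to -0.69 at 10000 CPM, and, ranked on 5000 UMIs, Nkg7 to 0.63 and Gzma to 1.56, while subtracting 5% free RNA turned Nkg7 to 3.47. Between members with and without Ifnb1, Hsph1 turned to -0.062 without heat shock barcodes and Cox6a2 to -0.085 at the C1q limit of 10000 CPM. No replicate could be left out, since there is 1 library per group. No paired analysis was possible because the results come from no test and the libraries share their droplets. Settings on heat shock, 5 Ifnb1 UMIs, Ly6c2 within the Ifnb1 comparison, summed log2 ranking, centring and the upper 50 members were chosen after seeing the data.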

Other observations

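Gene lists other than those of the rule and of interferon targets also differed between members with and without Ifnb1, but they are not free of such targets. The cell death list holds Zbp1 and Mlkl, at log2 ratios of 1.28 and 1.23 in interferon macrophages over the rest. The cholesterol list holds the interferon target Ch25h. Of 16 genes of cell death pathways, 9 lay at least 2-fold lower with Ifnb1 and none higher, with a median ratio of 0.458, and of 12 genes of cholesterol synthesis 6 lay lower and none higher, with a median of 0.465, where the median of all genes was 0.773 and 20.1% of genes lay at least 2-fold lower. Genes of tissue macrophages stood close to even, with a median ratio of 0.980 and 2 of 26 lower. These are descriptions of 1 library and were not tested, nor was the part of interferon targets in these lists.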
